A study of Drosophila melanogaster with 8 samples.

Results

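The lipases of seminal fluid were followed here as 7 genes, CG17097, CG31872, CG18284, CG11598, CG11608, CG14034 and CG5162, out of 14865 genes in the count table. They were chosen by name, with earlier results of these data known. All 7 were found in the table and passed the filter on low counts. Poly(A) RNA of whole adult Drosophila melanogaster had been sequenced from 5 control libraries, named w1118, a white-eyed laboratory strain, in the deposited sample sheet, and from 3 libraries of the DHR39 mutant, named DHR393.48. DHR39 is the nuclear receptor gene Hr39. All flies were taken at day 8 of adulthood after rearing on food with 8% yeast and 9% sugar, and the sample titles mark the controls as re-used. The labels give neither the sex of the flies nor the lesion of the allele, and the series title names male fertility and accessory gland expression as the subject. Nothing in them says that the libraries of a group came from separate cultures, so the p-values cover the spread among these libraries alone, which could be technical.

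Seminal fluid is the mixture of secreted proteins and small molecules that a male passes to the female with the sperm. In Drosophila most of it is made by the accessory glands, with further contributions from the ejaculatory duct and bulb, and it includes hormones such as sex peptide, proteases, protease inhibitors, lectins and lipases. Lipases are enzymes that cut fatty acids from lipids, and the natural lipids of these lipases in the fly are mostly not known. By sequence class CG17097, CG31872, CG18284, CG11598 and CG11608 belong to the acid lipases, the family of the lysosomal and gastric lipases of mammals. CG14034 and CG5162 belong to the pancreatic lipase family, which in flies also contains digestive lipases and relatives of the yolk proteins.

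RNA of all 7 lipases was lower in DHR39 flies. The fall ran from 7.89-fold for CG31872 and 7.57-fold for CG17097 to 2.55-fold for CG18284 and 2.25-fold for CG5162. A gene was called changed at a Benjamini-Hochberg adjusted p under 0.05 in the quasi-likelihood test of edgeR, fitted on all 13506 genes that passed the filter. By that rule 7 of 7 lipases were called lower, where 10.7% of all tested genes were called lower and 6.58% higher. All 7 fell at least 2-fold, against 5.03% of tested genes that were called and fell by that much. For each of the 7, the 3 DHR39 libraries lay below all 5 controls, as they did for 13.4% of tested genes. Since the 7 were chosen with earlier results known, these shares are given as background and test no excess. The median log2 fold change, DHR39 minus control, was -2.61 over the 7 genes and -0.0043 over all tested genes. In bulk RNA of whole flies, fewer cells of a type and less RNA per cell cannot be told apart.

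The 7 genes took 0.65, 0.638, 0.795, 0.701 and 0.698% of all counts in controls 1 to 5 and 0.141, 0.122 and 0.133% in DHR39 libraries 1 to 3. The mean was 0.696% ± 0.0617 in controls (SD, n = 5) and 0.132% ± 0.00991 in DHR39 (SD, n = 3), and the groups did not overlap. Total counts per library ran from 16072497 to 19935574. Most of these lipase reads came from the neighbouring genes CG17097 and CG31872, which held 81.3 to 84.8% of the 7 genes' counts in controls and 62.3 to 64.1% in DHR39. Levels below are in CPM, counts scaled to a common library size after TMM normalisation, given as mean ± SD, and log2 fold changes are given ± SE.

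**Figure D1:**
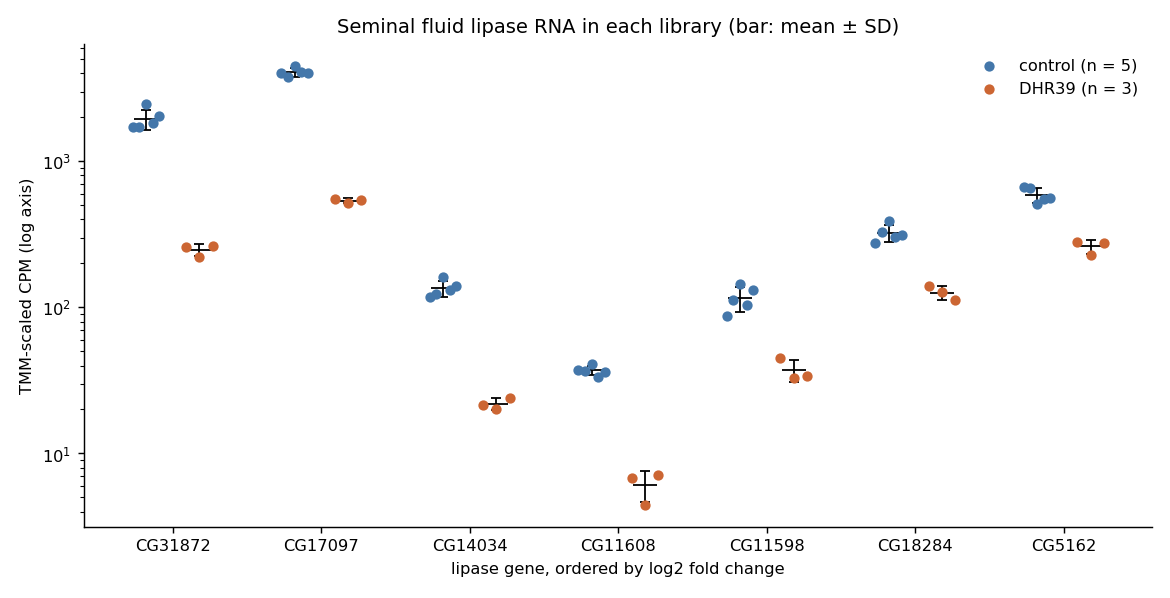
TMM-scaled CPM of each seminal fluid lipase gene on a log axis, with a point for each of the 5 control and 3 DHR39 libraries and a bar for the mean ± SD. The DHR39 points lie below the control points for every gene, with the widest gap for CG31872 and CG17097 and the narrowest for CG5162.

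CG17097 (FBgn0265264) was the most abundant of the 7 and ranked 4 by CPM among the tested genes in the controls. It lies on arm 2L from 10646415 to 10650152, on the plus strand, in 5 exons. Its level was 4008, 3749, 4497, 4095 and 4021 CPM in controls 1 to 5 and 556, 515 and 544 CPM in DHR39 libraries 1 to 3. The libraries of each group were close together and the groups were far apart. The mean fell from 4074 ± 270 to 538 ± 21.1 CPM, or by a log2 difference of -2.92 ± 0.095 (edgeR adjusted p = 6.5e-09), and the gene's rank by CPM became 245. Ordered by p over the whole table, CG17097 stood at position 3.

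CG31872 (FBgn0051872), another acid lipase gene, lies on the same strand of 2L from 10639931 to 10643539, in 4 exons. It was at 1717, 1707, 2449, 1839 and 2041 CPM in controls 1 to 5 and at 258, 221 and 263 CPM in the DHR39 libraries. Control 3 was the highest of the controls, and every DHR39 library was far below the lowest control. The mean fell from 1951 ± 309 to 247 ± 23.1 CPM, or by a log2 difference of -2.98 ± 0.14 (edgeR adjusted p = 1.5e-07). Its rank by CPM went from 30 to 748. These coding regions of 3219 bp in CG31872 and 3261 bp in CG17097 are more than 2-fold longer than those of the other 5 lipases, which run from 1014 to 1371 bp.

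CG18284 (FBgn0043825) lies between CG31872 and CG17097, at 2L from 10643971 to 10645891, with 431 bp to the former and 523 bp to the latter. It was at 276, 326, 391, 304 and 311 CPM in controls 1 to 5 and at 140, 127 and 112 CPM in DHR39 libraries 1 to 3. The groups were again separate, but much closer than for its neighbours. The mean fell from 322 ± 42.7 to 126 ± 13.9 CPM, or by a log2 difference of -1.35 ± 0.12 (edgeR adjusted p = 1.4e-05). The middle gene of the group therefore kept a larger part of its control level than the genes on either side.

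The other acid lipases of the 7, CG11598 (FBgn0038067) and CG11608 (FBgn0038069), lie on arm 3R. CG11598, at 12634917 to 12636283 on the plus strand, was at 87.7, 112, 144, 104 and 131 CPM in controls 1 to 5 and at 44.7, 33.0 and 34.1 CPM in DHR39. Its mean fell from 116 ± 22.3 to 37.3 ± 6.49 CPM, or by a log2 difference of -1.64 ± 0.17 (edgeR adjusted p = 3.6e-05). It had the widest relative spread of the 7 among the controls, and the groups still did not overlap. CG11608, at 12638481 to 12640033 on the plus strand, was the least abundant, at 37.3, 36.8, 41.0, 33.5 and 36.4 CPM in controls and 6.79, 4.45 and 7.09 CPM in DHR39. Its controls were tight and its DHR39 libraries rested on few reads, with 94 counts in the lowest library. The mean fell from 37.0 ± 2.68 to 6.11 ± 1.44 CPM, or by a log2 difference of -2.61 ± 0.15 (edgeR adjusted p = 5.9e-07).

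The pancreatic type genes gave one of the larger falls and the smallest. CG14034 (FBgn0250847), at 2L from 5215189 to 5216542 on the minus strand, was at 117, 123, 162, 132 and 141 CPM in controls and at 21.5, 20.2 and 24.1 CPM in DHR39. Its mean fell from 135 ± 17.6 to 21.9 ± 1.97 CPM, or by a log2 difference of -2.62 ± 0.13 (edgeR adjusted p = 1.5e-07). The DHR39 libraries were nearly level and lay far below the controls. CG5162 (FBgn0030828), on the X at 17215304 to 17217365, was at 671, 655, 509, 553 and 562 CPM in controls and at 280, 228 and 277 CPM in DHR39. Its mean fell from 590 ± 69.7 to 262 ± 29.4 CPM, or by a log2 difference of -1.17 ± 0.12 (edgeR adjusted p = 3.1e-05). Unlike the other 6 genes, CG5162 was highest in controls 1 and 2 and lowest in control 3. The size of the change thus did not follow the lipase family, since each family held a gene that fell more than 6-fold and a gene that fell less than 3-fold.

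Per kilobase of exon, the scale on which levels of different genes can be compared, the order in the controls was CG17097 at 1201 ± 79.6 CPM per kb, CG31872 at 574 ± 91.0, CG5162 at 385 ± 45.5 and CG18284 at 209 ± 27.8. CG14034 at 119 ± 15.5 and CG11598 at 92.8 ± 17.9 followed, with means closer than the sum of their SDs, and CG11608 was last at 26.8 ± 1.94. In DHR39 the order changed. CG5162 at 171 ± 19.2 CPM per kb and CG17097 at 159 ± 6.23 led within their spread, and CG18284 at 82.0 ± 9.02 and CG31872 at 72.7 ± 6.79 came next, also within their spread. CG11598 at 29.8 ± 5.20 then stood above CG14034 at 19.3 ± 1.73, and CG11608 was again last, at 4.43 ± 1.05.

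The change in order was tested as ratios between genes within a library, which do not depend on library scaling, for all 21 pairs. In the exact permutation test of the difference in mean log2 ratio between groups, 14 pairs reached p = 0.0179, the smallest that 5 against 3 libraries allow, with a Benjamini-Hochberg adjusted p over the 21 pairs of 0.0268. This comparison of pairs was chosen after the levels had been seen. The 14 include all 12 pairs of 1 gene from CG31872, CG17097, CG14034 and CG11608 with 1 from CG11598, CG18284 and CG5162, with differences from -0.99 to -1.80 on the log2 scale. CG17097 stood at 12.7 times its neighbour CG18284 in CPM in the controls, with single libraries from 11.5 to 14.5, and at 4.28 times in DHR39, from 3.98 to 4.86. CG31872 was at 3.29 times CG5162 in the controls, from 2.56 to 4.81, and level with it in DHR39, at 0.921, 0.968 and 0.948 times. The other pairs at the smallest p set CG31872 and CG17097 against CG14034, with differences of -0.35 and -0.30. Without control replicate 5 the call of CG17097 against CG14034 ended (-0.32, exact permutation test, adjusted p = 0.0857).

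The remaining 7 pairs did not pass this unpaired test. Among the genes that fell most, CG31872 against CG17097 differed by -0.05 (exact permutation test, adjusted p = 0.637), with CG31872 at 0.428 to 0.545 times CG17097 in the controls and 0.429 to 0.483 times in DHR39. CG14034 against CG11608 differed by 0.01 (exact permutation test, adjusted p = 0.893), and their ratio ran from 3.13 to 3.96 in the controls and from 3.16 to 4.54 in DHR39. CG31872 and CG17097 against CG11608 differed by -0.35 and -0.29, about as much as the called pairs with CG14034 (exact permutation test, adjusted p = 0.0938 and 0.132). Among the genes that fell least, the differences were -0.28 for CG11598 against CG18284, -0.46 for CG11598 against CG5162 and -0.18 for CG18284 against CG5162. Without control replicate 1, CG11598 against CG18284 passed (-0.32, exact permutation test, adjusted p = 0.04). With any DHR39 library left out no pair passed. That outcome was nearly fixed in advance, since the smallest p allowed is then larger and almost all 21 pairs would have to reach it. The loss is therefore no sign that a pair rests on 1 library. Replicate names in the deposited sample sheet give each DHR39 library a control partner, and within partners, a comparison added after seeing the data, 5 of these 7 pairs differed with the same sign in all 3. CG11598 against CG5162 differed by -0.83, -0.38 and -0.93 there, CG11598 against CG18284 by -0.20, -0.39 and -0.48 and CG31872 against CG11608 by -0.65, -0.15 and -0.60. No paired exact permutation test was run, since 3 pairs allow no two-sided p under 0.25. A missed threshold therefore does not show that these genes fell alike.

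**Figure D2:**
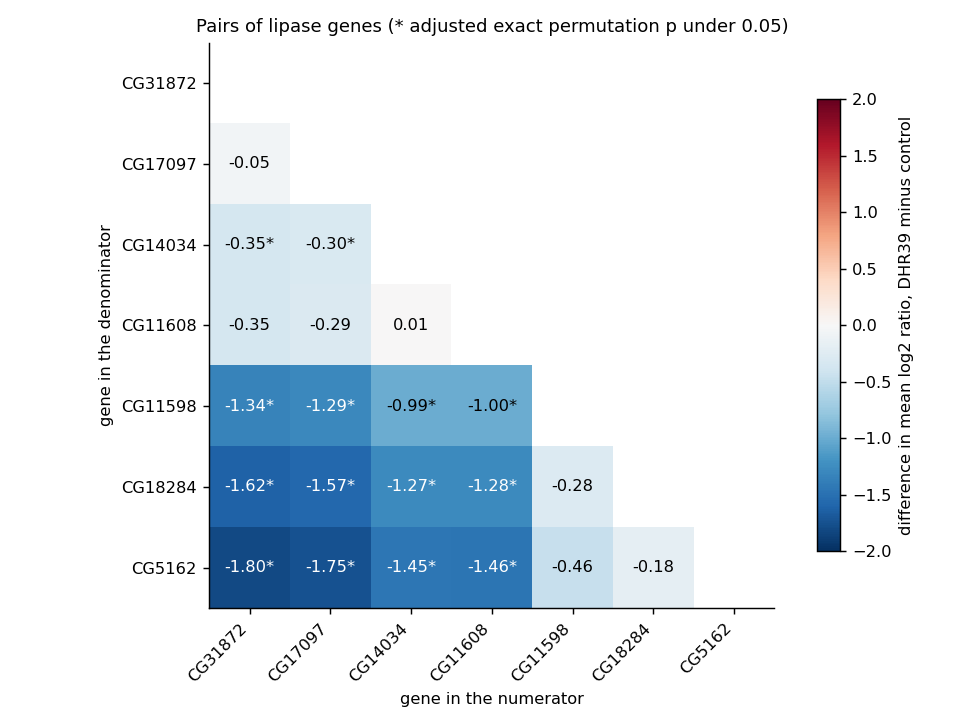
Difference between DHR39 and control in the mean log2 ratio of each pair of the 7 lipases, with the numerator gene on the x axis, the denominator gene on the y axis and a star for an adjusted exact permutation p under 0.05. The block of pairs joining the 4 genes that fell most to the 3 that fell least runs from -0.99 to -1.80, and pairs within either set lie between -0.46 and 0.01.

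In control 3, 6 of the 7 lipases were above their control means. Relative to the control mean on the log2 scale, control 3 was higher for CG31872 by 0.34, for CG11598 by 0.34, for CG18284 by 0.29, for CG14034 by 0.27, for CG11608 by 0.15 and for CG17097 by 0.14. The summed CPM of 28 seminal proteins of the accessory gland that are not lipases deviated by 0.38 in that library. CG5162 went the other way there, at -0.21, and was high in control 1, at 0.19, where the gland sum was low, at -0.33. In no other control did these 6 genes deviate with one sign, and control 1 was at -0.38 for CG11598 and at 0.02 for CG11608. With 5 controls, these deviations are given as a description.

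The gland list was used as a second scale, to set the change of each lipase against that of known accessory gland products. Like the lipases, the list was chosen with earlier results of these data known. Of its 28 genes, all tested, 25 fell, 1 rose and 2 did not pass, with a median log2 fold change of -1.67. The gene that rose was Acp26Ab, from 156 ± 12.9 to 370 ± 39.5 CPM. Its sum was 7531 to 12311 CPM in the controls and 2463 to 3146 CPM in DHR39. Acp36DE, a large protein needed for sperm storage, fell from 3376 ± 874 to 493 ± 70.1 CPM (log2 fold change -2.78 ± 0.21, edgeR adjusted p = 3.2e-06), and a gene on the opposite strand overlaps it. Acp26Aa, or ovulin, which stimulates ovulation in the mated female, fell from 514 ± 78.0 to 78.6 ± 22.4 CPM (-2.71 ± 0.20, edgeR adjusted p = 2.3e-06). Acp95EF, also overlapped on the opposite strand, and Acp98AB fell by 2.97 ± 0.22 and 2.74 ± 0.17 on the log2 scale. The falls of CG31872 and CG17097 thus had counterparts of like size among the gland products. Acp76A fell further than any seminal lipase, at -3.84 ± 0.45 on the log2 scale (edgeR adjusted p = 0.000101), with controls spread from 132 to 500 CPM. Of the genes that did not pass, Acp24A4 was at -0.33 ± 0.49 on the log2 scale (edgeR adjusted p = 0.74) and CG10433, overlapped by an antisense gene, at 0.26 ± 0.094 (0.0862), which was called higher without DHR39 replicate 2 (0.34, 0.0392).

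As a percentage of the gland sum, the 7 lipases together stood at 91.8, 73.2, 66.6, 77.8 and 74.2% in controls 1 to 5 and at 41.5, 46.6 and 47.2% in DHR39. The ranges did not overlap. With library sizes set to the gland list's counts in the edgeR fit, 1.53% of tested genes were called lower and 94.6% higher, since the scale itself fell, and the median of all genes became 1.77 on the log2 scale. On that scale 4 lipases were called lower. CG31872 was at -1.19 ± 0.20 (edgeR adjusted p = 5.4e-06) on the log2 scale and CG17097 at -1.14 ± 0.20 (1.3e-05). CG11608 was at -0.84 ± 0.21 (0.000575) and CG14034 at -0.83 ± 0.20 (0.00035). These 4 genes fell by more than the sum of the gland list, which includes Acp26Ab, a gene that rose. They did not fall by more than every gland gene. On the TMM scale, Acp76A (-3.84), Acp95EF (-2.97) and Acp36DE (-2.78) fell at least as much as CG14034 (-2.62) and CG11608 (-2.61). The list median was -1.67.

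CG18284 at 0.44 ± 0.19 (edgeR adjusted p = 0.0284) and CG5162 at 0.57 ± 0.22 (0.0175) were called higher relative to the gland list, as nearly all genes were, and CG11598 at 0.15 ± 0.18 (0.419) did not pass. These 3 values depend on the most abundant gland genes. Acp36DE, Acp95EF and Acp53C14b hold 48.8% of the list's CPM in the controls, and with them left out, an alternative chosen after seeing the data, CG18284 was at -0.06, CG5162 at 0.09 and CG11598 at -0.35 (edgeR adjusted p = 0.685, 0.653 and 0.0353). The call of CG18284 also ended without any one of 6 libraries (controls 2, 4 and 5 and each DHR39 library), at 0.35 to 0.50, and that of CG5162 without DHR39 replicate 3, at 0.50. The 4 genes called lower kept that call in each alternative run. Without the 3 most abundant gland genes they moved further down, to -1.69 for CG31872, -1.64 for CG17097 and -1.33 for both CG14034 and CG11608. No run left out the gland genes that rose or did not pass, Acp26Ab, CG10433 and Acp24A4. In DHR39, Acp26Ab and CG10433 were each at 370 CPM of a sum of 2463 to 3146 CPM. In the controls they were at 156 and 310 CPM of 7531 to 12311 CPM. The calls without those genes were not tested.

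**Figure D3:**
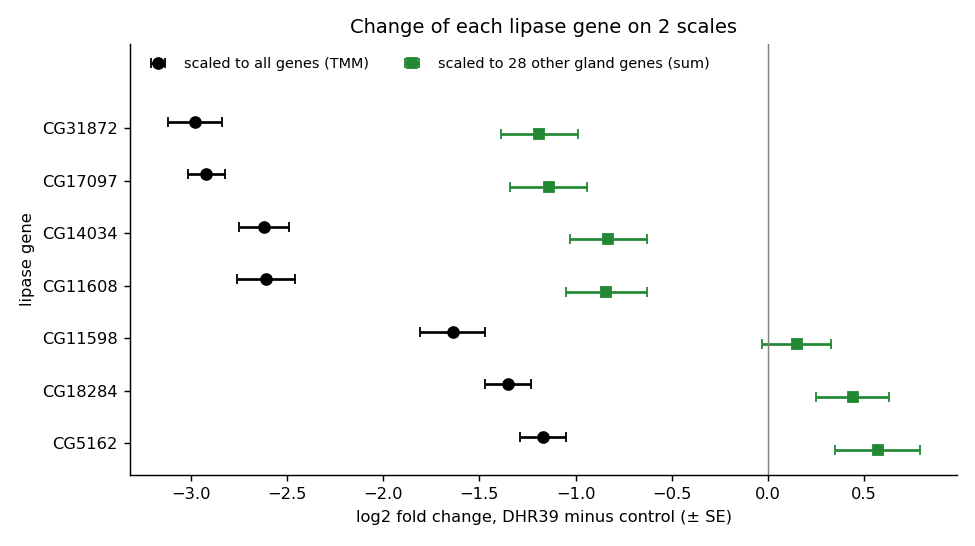
Log2 fold change of each lipase gene, DHR39 minus control ± SE, scaled to all genes by TMM (black circles) and to the summed counts of the 28 other gland genes (green squares). On the TMM scale all 7 lie between -2.98 and -1.17, and on the gland scale CG31872, CG17097, CG14034 and CG11608 stay below 0.

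Of the 7 genes, 5 lie in groups of neighbouring acid lipase genes. On 2L the order is CG7329, the non-coding gene CR45351, CG31872, CG18284, CG17097 and the non-coding gene CR44580. CG7329, an acid lipase gene on the minus strand, went in the opposite direction from the 3 seminal lipases. It was at 17.8, 18.8, 22.8, 21.6 and 20.2 CPM in the controls and at 41.9 ± 3.67 CPM in DHR39, where the lowest library had 38.9 CPM, so that all DHR39 libraries were above all controls. It rose by 1.05 ± 0.10 on the log2 scale (edgeR adjusted p = 2.7e-05). CR45351, which ends 338 bp before CG31872, fell from 3.33 ± 0.832 to 1.02 ± 0.321 CPM (log2 fold change -1.68 ± 0.30, edgeR adjusted p = 0.00213). CR44580, 704 bp beyond CG17097, was below 1 CPM and did not pass (-0.78 ± 0.47, edgeR adjusted p = 0.326). None of the 7 lipase genes overlaps another annotated gene. Reads that match more than 1 member of a tandem group may be divided between them or lost, which was not tested.

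On 3R the order is CG18530, CR46018, CG11598, CG11600, CG11608 and CG6753. CG11600, an acid lipase gene between both seminal lipases, with gaps of 256 and 504 bp, was at 1.15, 2.52, 4.22, 2.69 and 3.09 CPM in the controls and at 0.0576, 0.284 and 0.410 CPM in DHR39. It was low in every library and fell with its neighbours, by 3.40 ± 0.54 on the log2 scale (edgeR adjusted p = 0.000908). CR46018, a non-coding gene 172 bp from CG11598, fell by 1.66 ± 0.25 (edgeR adjusted p = 0.000639), and it overlaps CG18530 on the opposite strand. The acid lipase genes at the outer ends did not pass, CG18530 at 0.29 ± 0.31 (edgeR adjusted p = 0.626) and CG6753 at 0.38 ± 0.39 (0.593).

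**Figure D4:**
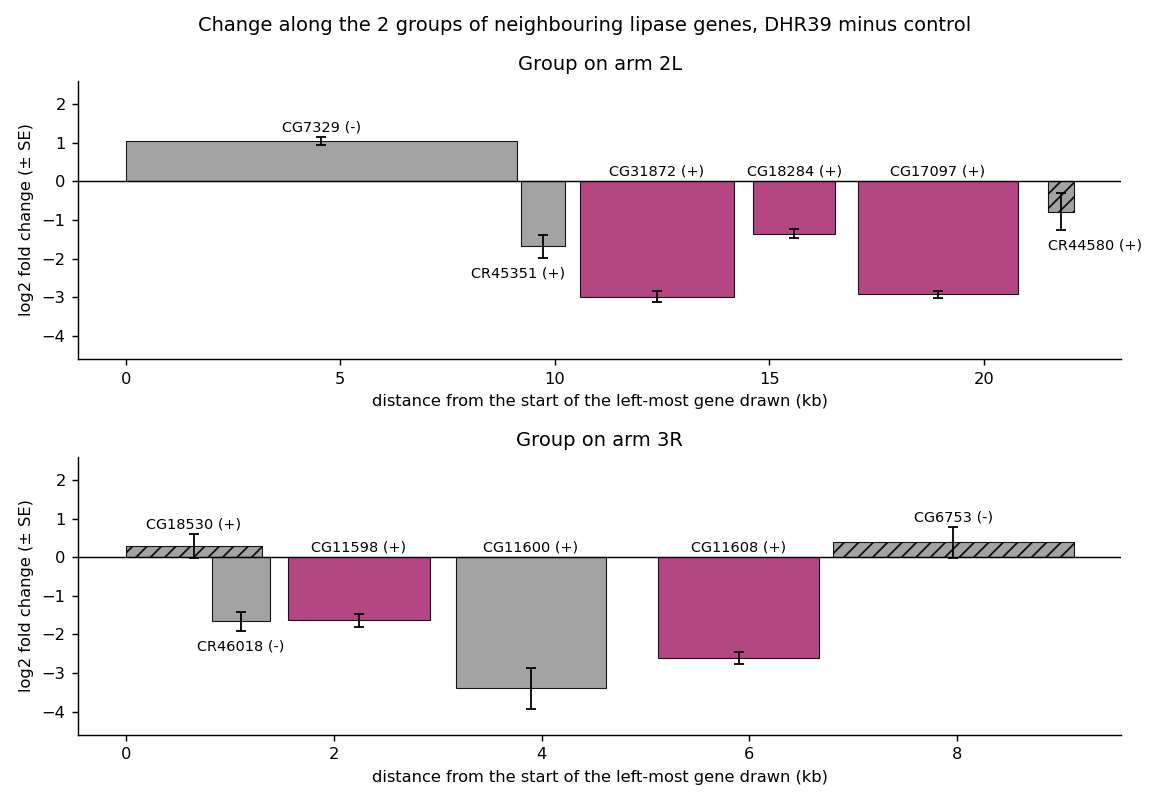
Log2 fold change (DHR39 minus control ± SE) of the genes along the 2L and 3R groups of acid lipases, drawn to scale against distance in kb from the start of the left-most gene, with strand in brackets. Seminal lipases are purple, other genes grey, and hatched bars did not pass the test. CG7329 rose by 1.05 while the seminal lipases on its right fell, and CG11600 fell with CG11598 and CG11608.

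The remaining genes stand apart from these groups. CG14034 lies 107 bp from CG7742 and 158 bp from TpnC25D, a troponin C gene, and neither neighbour passed the test, at -0.08 ± 0.097 and -0.02 ± 0.12 on the log2 scale (edgeR adjusted p = 0.683 and 0.957). Both overlap other genes on the opposite strand. CG5162 has a pancreatic type lipase gene, CG18258, 1326 bp to its left on the same strand. CG18258 was at 209, 173, 255, 224 and 206 CPM in the controls and at 84.0, 108 and 75.8 CPM in DHR39, with no overlap. It fell by 1.26 ± 0.14 on the log2 scale (edgeR adjusted p = 8.1e-05), beside 1.17 ± 0.12 for CG5162. The gene on the other side, CG12998, had too few counts to be tested.

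The fall of the 7 seminal lipases was set beside the other lipases of each family. Of 18 other acid lipases with counts, 17 were tested, of which 7 fell, 1 rose and 9 did not pass, with a median log2 fold change of -0.66. Beside this list and those below, 10.7% of all tested genes were called lower and 6.58% higher. Besides CG11600, CG31091 fell from 18.9 ± 9.92 to 1.92 ± 1.01 CPM (log2 fold change -3.26 ± 0.49, edgeR adjusted p = 0.000611). The intestinal lipase mag (magro) fell from 157 ± 33.1 to 44.8 ± 9.21 CPM (-1.81 ± 0.18, edgeR adjusted p = 3.1e-05), and a gene on the opposite strand overlaps it. Among those that did not pass was CG18301, at -1.10 ± 0.40 (edgeR adjusted p = 0.0828). Control 2 stood at 76.9 CPM for CG18301 against 22.6 to 26.4 in the other controls, and the call was made without that library (-0.58, edgeR adjusted p = 0.0157) and with replicate names as a block (-0.61, 0.0171). Summed, the other acid lipases were at 450 to 562 CPM in the controls and at 257 to 294 CPM in DHR39.

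Of 24 other pancreatic type lipases with counts, 23 were tested, of which 8 fell, 0 rose and 15 did not pass, with a median of -0.14. Beside that 0, DESeq2 and limma voom called 0 higher, library totals as the scale called 2, and 2 were higher at an unadjusted edgeR p under 0.05. CG17192, overlapped by RYa-R on the opposite strand, fell from 174 ± 34.6 to 29.8 ± 17.2 CPM (log2 fold change -2.54 ± 0.31, edgeR adjusted p = 0.000132), and CG34447 from 21.2 ± 9.21 to 2.55 ± 0.589 CPM (-3.05 ± 0.37, 0.000137). CG17292, overlapped by an antisense gene, fell by 0.73 ± 0.10 (edgeR adjusted p = 0.000417). CG5966 at -0.13 ± 0.28 and CG6283 at -0.94 ± 0.42 did not pass (edgeR adjusted p = 0.829 and 0.161), and without control replicate 3 CG6283 was called lower (-1.16, 0.0229), whereas with replicate names as a block it was at -0.24 and not called. RYa-R also overlaps CG6283. The family's sum was 1530 to 1748 CPM in the controls and 775 to 1102 CPM in DHR39.

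Of 3 lipases of stored fat inside cells, 1 passed the test. The triglyceride lipase bmm (brummer) was at -0.19 ± 0.26 (edgeR adjusted p = 0.715) on the log2 scale and the hormone-sensitive lipase Hsl at 0.22 ± 0.080 (0.0814), which was called higher when libraries were scaled by their totals (0.37, edgeR adjusted p = 0.00774). The related gene dob passed at -0.57 ± 0.17 (edgeR adjusted p = 0.0437), a call that ended in 9 of 15 alternatives, among them the block of replicate names (-0.37, edgeR adjusted p = 0.0552) and leaving out controls 2 or 5 or any DHR39 library.

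**Figure D5:**
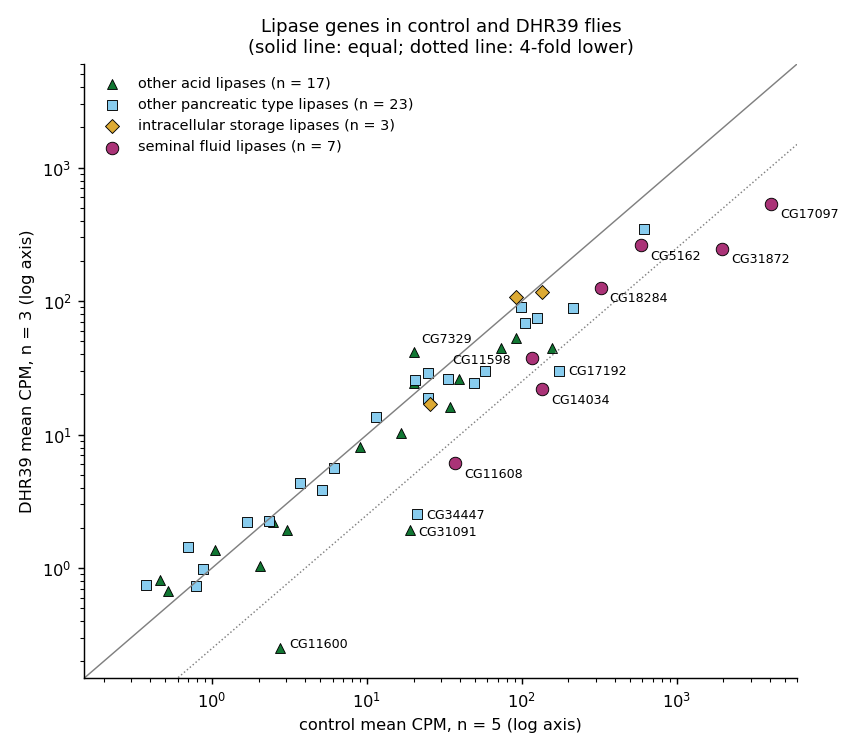
Mean CPM in DHR39 (n = 3) against mean CPM in controls (n = 5) for the tested lipase genes, on log axes, with a solid line at equality and a dotted line at 4-fold lower. CG17097, CG31872, CG14034 and CG11608 lie below the dotted line, along with CG17192, CG34447, CG31091 and CG11600 of the other lipases, and CG7329 lies above equality.

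Markers of other organs were measured beside these results, where 10.7% of all tested genes were called lower and 6.58% higher. Of genes of the ejaculatory duct and bulb, 4 of 6 fell (Est-6, Dup99B, Gld and EbpIII), and their sum was 6489 to 10389 CPM in the controls, 6489 to 7169 without control 2, and 4035 to 4204 CPM in DHR39. Of midgut genes 7 of 12 fell (sums of 7735 to 9645 and 4501 to 6371 CPM), of fat body genes 3 of 5 (Lsp2, Lsp1beta and apolpp, 4740 to 7086 and 3286 to 4048), of which limma voom called 2, and of muscle genes 2 of 7 (Mhc and fln, 5122 to 5987 and 4084 to 4329). Lsp2 stood at 313 and 248 CPM in controls 1 and 2 and at 4.64, 11.7 and 45.5 CPM in controls 3 to 5, which overlap the 2.13 to 13.5 CPM of DHR39, and its call ended without control 1, without control 2 or without any DHR39 library. The call of Gld ended without DHR39 replicate 1 or 3 (-0.72 in both), that of Lsp1beta without DHR39 replicate 1 (-2.34) or 2 (-2.79), and that of fln without any of 6 libraries (-0.61 to -0.47; controls 1, 2, 3 and 5 and DHR39 replicates 2 and 3). For fln it also ended with library totals as the scale (-0.46, edgeR adjusted p = 0.0811) and with totals that omit the 50 most abundant genes (-0.51, 0.0647). Of 16 testis genes 1 rose (Mst84Db) and 0 fell, also at an unadjusted p under 0.05 and by DESeq2 and limma voom, with sums of 5098 to 6823 and 5275 to 6290 CPM. Of 6 eye genes 0 passed in edgeR, with 1 lower at an unadjusted p under 0.05, 1 lower by DESeq2 and 0 by limma voom, and sums of 7203 to 7997 and 6891 to 7757 CPM. Of female fat body and ovary genes 0 of 4 passed, also at an unadjusted p under 0.05 and by DESeq2 and limma voom, and they summed to at most 18.9 CPM in any library, while the roX RNAs of male dosage compensation summed to 584 CPM or more. Of 14 midgut genes listed, 12 were found in the count table, without gammaTry and deltaTry. Of 7 female fat body and ovary genes listed, 4 were found, without Vm26Aa, Vm34Ca and Cp36. No marker found in the table was at 0 in every library, and the part of these tissues in the lipase changes was not tested. No library is of a dissected gland, so no value here places the lipase RNAs in that organ.

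Hr39 itself was at 36.2 ± 2.38 CPM in the controls and 27.0 ± 2.89 CPM in DHR39, a log2 difference of -0.42 ± 0.10 (edgeR adjusted p = 0.0119). The Hr39 call was lost without DHR39 replicate 1, without DHR39 replicate 2 and when libraries were scaled by their totals (edgeR adjusted p = 0.0515, 0.0508 and 0.0592), with log2 differences of -0.36, -0.41 and -0.28. Other annotated features overlap Hr39 on its strand. Hr39 lies on 2L, from 21237250 to 21259675. On the same arm, 4 of the 7 lipases lie between 5215189 and 10650152. The share of all tested genes on 2L was not taken, and a link between position and change was not tested.

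The genes whose pattern over the 8 libraries was most like that of CG17097 were ranked by Pearson r of log2(CPM + 1) among 13499 genes. The highest were Mst36Fb (0.9995), CG18095 (0.9979), CR43263 (0.9971), Muc14A (0.9969) and CG31226 (0.9969), and 38 genes were above 0.99. The points share the difference between the groups, and about the group means r was 0.82, 0.87, 0.57, 0.67 and 0.38. Mst36Fb went from 60.5 to 85.9 CPM in the controls to at most 0.230 CPM in DHR39, close to 0. Muc14A, at 16.9 ± 1.32 and 3.17 ± 0.447 CPM, fell by 2.41 ± 0.14 on the log2 scale (edgeR adjusted p = 4.5e-07), and CG18095, which a gene on the opposite strand overlaps, by 0.97 ± 0.087 (1.2e-05).

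The authors' deposited table gives log2 fold changes from -2.82 for CG31872 to -1.11 for CG5162 and places all 7 lipases in its set of genes lower in DHR393.48.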

How the data were processed

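The members and gene lists were chosen with earlier results of these data known. The authors deposited raw counts per gene for each library, from stranded poly(A) libraries per the labels' protocols. The submitters' processing notes name STAR 2.6.1b, featureCounts 1.6.3, cutadapt 1.16 and DESeq2 (versions 1.22.2 and 1.20.0) and the builds dm6 and BDGP6. The strand setting of the counting is not given in the sources, so overlapping genes are uncertain. The authors' deposited sample sheet gives size factors, the ratio by which libraries were scaled, and replicate names. The authors' deposited table of log2 fold changes was used for the 7 lipases only.

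Counts of 14865 genes, 5 of them at 0 throughout, were filtered with filterByExpr, which left 13506. TMM scaling and the two-sided quasi-likelihood test of edgeR 4.0.16 (R 4.3.3) were applied to all 8 libraries, with Benjamini-Hochberg adjustment over all tested genes and calls at 0.05. The biological coefficient of variation was 14.9%. An SE is the size of the log2 fold change divided by the square root of F. The procedure was tested on simulated data. Positions and exon lengths came from Ensembl release 115 on the BDGP6 assembly. The genes named were the 7 lipases, their nearest neighbours, Hr39, up to 4 called genes of smallest p and 2 uncalled genes of highest CPM in each lipase list and the gland list, and the 5 genes most like CG17097. Acp26Ab, Acp53C14b, Acp76A and the marker genes were named after their values were seen.

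Alternatives were size factors as in DESeq2, library totals alone, totals without the 50 most abundant genes, no low filter, DESeq2 1.42.0, limma 3.58.1 (voom), leaving out each library, and replicate names as a block. Replicates differed beyond sampling noise (chi-square per degree of freedom 17 to 42.9). By the sample sheet's names each DHR39 library has 1 control partner. Across genes, partners' deviations from their group means correlated at 0.266, 0.145 and 0.25, all over 0.1, and the names were treated as pairing the libraries, although other combinations reached 0.143. Genes are not independent in these correlations. Controls 1 and 2 share no name with DHR39 and add nothing to the block contrast. The exact permutation tests ignore this pairing. Deposited scaled counts, regularized log values and a deposited comparison table for another line were not used here.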

Additional observations from a re-analysis of the deposited data

Results flagged for a closer look

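Of 54 sets of control values examined, 7 held a library far from the rest, by a gap of at least 0.71 of the range between the 5 controls, a limit that chance passes in about 1 of 20 such sets. None was a seminal lipase. Control 2 was highest for CG18301 (gap 0.93 of the range, 76.9 CPM against at most 26.4), for Acp24A4 (0.851, 262 CPM against at most 85.0), for TpnC25D (0.781, 52.7 CPM against at most 43.1) and for the summed ejaculatory duct and bulb genes (0.825, 10389 CPM against at most 7169). Control 3 was highest for CG18095 (0.867, 42.5 CPM against at most 38.9) and for the summed testis genes (0.773, 6823 CPM against at most 5490). Control 1 was highest for the summed other pancreatic type lipases (0.779, 1748 CPM against at most 1578).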

How the results depend on the processing

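The fall of each seminal lipase kept its direction and its call in 105 of 105 alternatives (7 genes, 15 alternatives each). The changes ran from -3.09 to -2.84 for CG31872, -2.96 to -2.78 for CG17097, -2.72 to -2.48 for CG14034, -2.73 to -2.41 for CG11608, -1.79 to -1.49 for CG11598, -1.43 to -1.21 for CG18284 and -1.22 to -1.02 for CG5162. The fit with replicate names as a block gave -2.96 for CG17097 and -1.05 for CG5162 and, beside CG18301 and dob, changed no call of a named gene, markers included. Relative to the gland list, leaving out its 3 most abundant genes turned CG18284 to -0.06 and CG11598 to -0.35 and ended the call of CG5162 (0.09). This changes the scale for every gene alike, and the other 4 lipases also moved down, to between -1.69 and -1.33. The genes left out, Acp36DE, Acp95EF and Acp53C14b, were at -2.78, -2.97 and -1.82, beside a list median of -1.67. Leaving out single libraries gave 0.35 to 0.50 for CG18284 and 0.45 to 0.72 for CG5162 on that scale. With a DHR39 library left out, no pair ratio passed, which the test could hardly do with so few libraries. CG31872 against CG18284 then stayed at -1.75 to -1.54, and CG14034 against CG11608 ran from -0.15 to 0.11.

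Genes called higher numbered 889 (1444 lower), but 1992 with library totals alone and 1479 with totals that omit the 50 most abundant genes, scales that moved the median of all genes to 0.14 and 0.091. They ran from 553 (without DHR39 replicate 3) to 955 with single libraries left out. On these scales 2 and 1 other pancreatic type lipases (0 to 1 without single libraries) and 2 and 2 gland genes (1 to 2) were called higher. Some genes that did not pass changed sign. With library totals alone, CG5966 was at 0.02, CG7742 at 0.07 and TpnC25D at 0.13, and without the 50 most abundant genes CG7742 was at 0.02 and TpnC25D at 0.08. With the replicate block, Acp24A4 was at 0.29, CG5966 at 0.08, TpnC25D at 0.04 and bmm at 0.05. Without single libraries, Acp24A4 ran from -0.65 to 0.38, CG18530 from -0.18 to 0.62, CG5966 from -0.49 to 0.09, CG6753 from -0.04 to 0.61, TpnC25D from -0.13 to 0.09 and bmm from -0.31 to 0.07. Few reads limit the precision of CG11608 among the lipases and of CG11600, CG6753, CR44580, CR45351 and CR46018 among their neighbours.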
